A study of Caenorhabditis elegans with 4 samples.

Results

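The miR-2 family of *Caenorhabditis elegans*, taken here as miR-2, miR-43, miR-250 and miR-797 (cel-miR-2, cel-miR-43, cel-miR-250 and cel-miR-797 in the table), was examined in a small RNA profile of wild-type animals under heat shock. Members were taken by name alone, as every listed mature miRNA whose name, apart from the suffix for the arm, was one of these 4, and 7 of the 205 listed mature miRNAs met the rule. Small RNA came from whole N2 Bristol worms, the standard laboratory strain, at the last larval stage. Control animals (CTRL) stayed at 20°C and the heat shock group (HS) was held at 35°C, with 2 libraries in each group. One label gives 4 h at the higher temperature and another gives 6 h, and the longer time is the one in the study's small RNA methods. All groups shared the strain, the stage and the OP50 bacterial food, and no transgene or mutation was involved.

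The values below are the authors' means over all 4 libraries of counts divided by a depth factor per library, termed mean normalized counts. CTRL and HS are pooled in them, so they describe how abundant each miRNA was over the whole experiment and not how it changed with temperature. No value had an SD, no difference could be set against the spread between replicates, and no test was run. The depth of the libraries is unknown, so no interval or detection limit could be given. Ligation and amplification favour some small RNA sequences over others, so differences between miRNAs are differences in sequenced signal.

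A miRNA is cut from a hairpin precursor as a duplex of a 5p and a 3p arm. As a rule 1 arm, the guide, is kept by an Argonaute protein and pairs with mRNAs chiefly through its seed near the 5′ end, and the other arm, the passenger, is discarded. The miR-2 family is an ancient family of invertebrates whose members share a seed. In Drosophila, where it is large, its members recognise the K box motif of mRNA 3′ ends and repress pro-apoptotic genes of the reaper, hid and grim group. The seed-bearing arm is the 3p arm in miR-2, miR-43 and miR-250 but the 5p arm in miR-797.

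By background knowledge, the seed of miR-797-5p ties this member to the family although it comes from the opposite arm, and it is shown for that reason. The seed of miR-247-3p is shown because its hairpin is the nearest neighbour of miR-797. Both are given as bases 2 to 7, counted from the 5′ end, and all 6 letters of each are seed. They come from 19 seeds that the study listed for its search for targets, which does not cover all miRNAs.
miR-797-5p: AUCACA
miR-247-3p: GACUAG
The letters differ, so the hairpins that lie side by side on chromosome X carry unlike seeds. The seeds of the remaining family members were not analysed here, so the sharing of a seed within the family was not checked.

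The family was unevenly expressed, with nearly all of its signal in the 3p arms of miR-2 and miR-250. miR-2-3p had a mean normalized count of 25782 and was the 37th most abundant of the listed miRNAs. miR-250-3p followed at 19814, in 43rd place, so that miR-2-3p stood 1.30 times above it. Together these arms held 95.3% of the summed family level of 47853. They were the only 2 members above the median of the table, 1512, which they exceeded 17.1-fold and 13.1-fold.

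The other 5 arms lay below that median. miR-250-5p, the passenger side of its hairpin, was at 728 and ranked 127th. It was thus listed above the seed-bearing arms of both weaker members, 1.28 times the level of miR-43-3p and 1.75 times that of miR-797-5p. miR-43-3p had a mean normalized count of 570 and ranked 140th. miR-797-5p and miR-797-3p ranked next to each other, 149th at 416 and 150th at 413. miR-2-5p was the weakest member, at 130 in 183rd place, 2.53 times the lowest level in the table, 51.5.

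**Figure D1:**
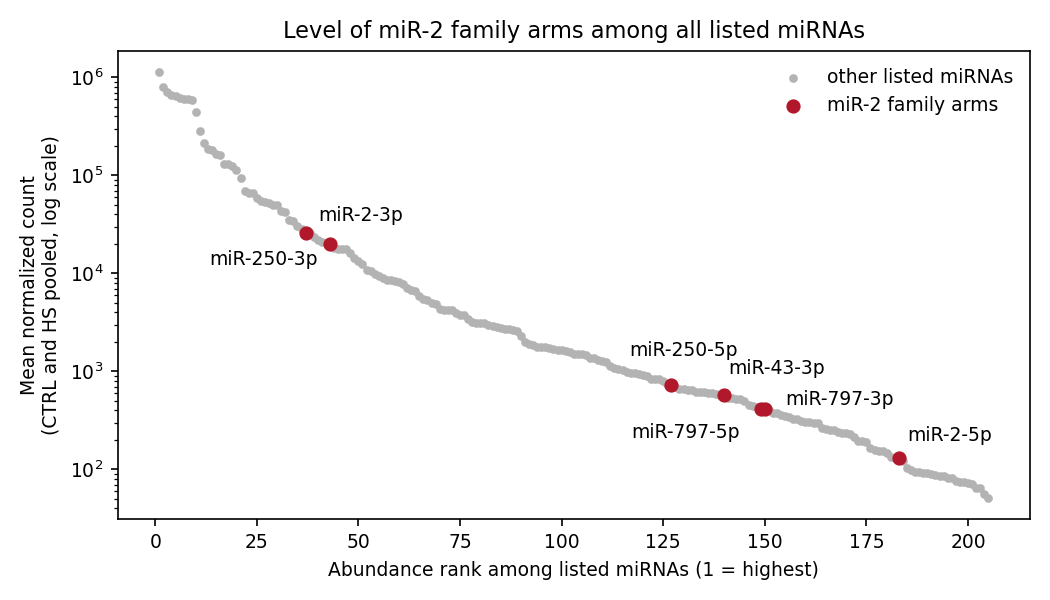
Mean normalized count (log scale, CTRL and HS pooled by the authors) of each of the 205 listed miRNAs against its abundance rank. Red points are the 7 miR-2 family arms and grey points all others, and miR-2-3p and miR-250-3p, at 25782 and 19814, stand apart from the 5 family arms between 130 and 728.

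Seed-bearing arms therefore spanned a wide range. miR-2-3p was 45.2 times as abundant as miR-43-3p and 62.0 times as abundant as miR-797-5p, and miR-250-3p was 34.7 and 47.6 times as abundant as the same arms. Summed over their listed arms, the miR-2 hairpin gave 54.1% of the family signal, miR-250 gave 42.9%, miR-797 gave 1.73% and miR-43 gave 1.19%. In the order of single arms, the steps from miR-2-3p to miR-250-3p, from miR-250-5p to miR-43-3p, from miR-43-3p to miR-797-5p and from there to miR-797-3p were all under 1.5-fold. Without replicate values the order within these steps is not settled. The step from miR-250-3p down to miR-250-5p was larger, at 27.2-fold, and likewise had no spread to set it against.

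As a whole the family was a minor part of the miRNA signal. Its arms made up 3.41% of the listed miRNAs and 0.484% of their summed level. A few very abundant miRNAs hold most of that sum, so most listed miRNAs likewise hold less than a proportional share. The most abundant miRNA of the table, miR-82-3p, was 44.1 times above miR-2-3p with a mean normalized count of 1136489. Of 3 other seed families set beside it, miR-44, miR-45, miR-61 and miR-247 summed to 27.9 times the level of the miR-2 family and miR-72, miR-73 and miR-74 to 18.0 times that level. The pair miR-75 and miR-79 was lower, and the miR-2 family sum was 3.94 times theirs. Mature miR-44-3p and miR-45-3p have the same sequence, so their reads cannot be assigned to either hairpin, and their listed levels were nearly equal at 604592 and 599219. With miR-45-3p left out, a choice made after seeing the data, the sum of that family was 15.3 times the miR-2 family sum. The families also differ in their number of hairpins.

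Both arms were listed for miR-2, miR-250 and miR-797, and the balance between them differed from hairpin to hairpin. In miR-2 the 3p arm exceeded the 5p arm 198-fold, so that the 5p arm was 0.503% of the signal of its hairpin. In miR-250 the 3p arm was 27.2 times the 5p arm, which held 3.55% of the hairpin's signal. miR-797 showed no such dominance, as its 5p arm was 1.01 times its 3p arm and the 3p arm held 49.8%. Only the 3p arm of miR-43 was listed, although a 5p arm is annotated, so no ratio is given for it.

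Among all 73 hairpins listed with both arms, the ratio of the higher to the lower arm ran from 1.01 to 4263 with a median of 20.8. The rest of the 132 hairpins in the table have no ratio. No listed level was below 51.5, so strongly unequal hairpins may be among those left out. The range, the median and the places below hold only for the 73. miR-797 was 1 of 7 hairpins (9.59%) under 2-fold. Its ratio was listed lowest, but miR-800 and miR-50 were nearly equal at 1.08 each, and their order is not settled without replicate values. miR-250 lay near the middle, in 36th place from the largest, and miR-2 was 15th. The 3p arm was the higher in 44 of the 73 hairpins and the 5p arm in 29. Because each mean pools CTRL and HS, an equal ratio over the experiment may differ from the ratio in either group.

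**Figure D2:**
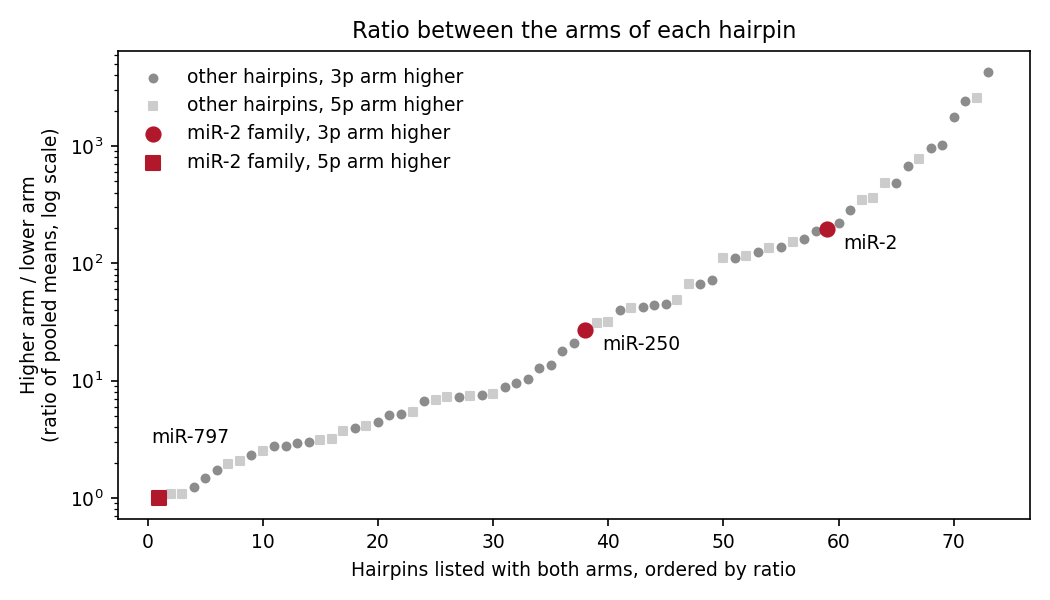
Ratio of the higher to the lower arm (pooled means, log scale) for the 73 hairpins listed with both arms, in increasing order. Circles mark hairpins with the higher level on the 3p arm and squares those with it on the 5p arm. miR-797 is at 1.01, nearly equal to the 2 hairpins next to it, miR-250 is at 27.2 and miR-2 at 198.

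The 4 hairpins lie on different chromosomes (WBcel235, Ensembl release 115, counted from 1). miR-2 spans 9372768 to 9372865 on the minus strand of chromosome I, inside a ppfr-1 intron and in the orientation of that gene, a gene for a regulatory subunit of protein phosphatase 4. miR-43 lies on the plus strand of chromosome II at 11889910 to 11890007, between protein-coding genes and 984 bases from ZK930.2. miR-250 spans 11769917 to 11770015 on the minus strand of chromosome V, outside coding genes but only 17 bases from sel-11, which encodes an E3 ubiquitin ligase and is on the opposite strand. miR-797, on chromosome X, spans 4757109 to 4757197 of the plus strand, outside coding genes and 1606 bases from mls-2, a homeobox gene on the opposite strand.

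The annotated mature arms also differed in length. The seed-bearing arms were 23 bases in miR-2-3p and in miR-43-3p, 20 in miR-250-3p and 25 in miR-797-5p. The partner arms were 22 bases in miR-2-5p, miR-250-5p and miR-797-3p and 24 in miR-43-5p. Between the arms lay 19 bases in miR-2, 16 in miR-43, 20 in miR-250 and 16 in miR-797.

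A shared feature that the names did not use was the company of other miRNA hairpins. All 4 members had another listed hairpin of the same strand within 10000 bases, against 46 of the 129 placed hairpins of the table (35.7%, members included). Within 1000 bases this held for miR-43, miR-250 and miR-797, so for 3 of the 4, against 28 of the 129 (21.7%). For these 3, a neighbour came from the same second family, since miR-43 is followed by miR-44 after 15 bases, miR-250 is preceded by miR-61 at 44 bases and miR-797 is preceded by miR-247 at 40 bases. In this way 3 of the 4 hairpins miR-44, miR-45, miR-61 and miR-247 stand beside a miR-2 family hairpin. The remaining one, miR-45, lies 8870 bases from miR-43 on the other strand. These positions are a description of the genome and were not tested. The share of all placed hairpins beside a hairpin of this second family was not computed, so its 3 of 4 has no baseline here. That miR-44 lies beside miR-43 and miR-247 beside miR-797 was known before the count was made.

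By their higher listed arm, and with miR-44 set aside, neighbours stood from 1.66 to 6.36 times above the higher arm of the member beside them. At the miR-43 locus, miR-44-3p had a mean normalized count of 604592, which was 1060 times that of miR-43-3p, whereas miR-44-5p was at 597, close to miR-43-3p. miR-42, a member of the miR-35 family, precedes miR-43 by 4 bases, and its 3p arm at 1262 was 2.21 times miR-43-3p. Because the reads of miR-44-3p cannot be told from those of miR-45-3p, listed at 599219, the 1060-fold ratio is one of listed levels and does not give the output of the hairpin beside miR-43.

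At the miR-250 locus the gap was smaller. miR-61-3p, a target of LIN-12/Notch signalling in vulval precursor cells, had a mean normalized count of 126108 and stood 6.36 times above miR-250-3p. The 5p arms of this pair were nearer to each other, at 917 for miR-61-5p and 728 for miR-250-5p. At the miR-797 locus miR-247-3p was at 1068, or 2.57 times miR-797-5p. By listed level the 3p arm of the second family was the higher of the pair at the miR-250 and miR-797 loci. At the miR-43 locus this cannot be read, since miR-44-3p and miR-45-3p share their sequence.

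miR-2 had a more distant neighbour. miR-71, which promotes long life in the worm, lies 7061 bases upstream on the same strand. Its 5p arm had a mean normalized count of 42868, which was 1.66 times that of miR-2-3p, and its 3p arm was at 10526, which miR-2-3p exceeded 2.45-fold. The arms favoured by these neighbours were on opposite sides, as the 5p arm of miR-71 exceeded its 3p arm 4.07-fold while miR-2 favoured its 3p arm.

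**Figure D3:**
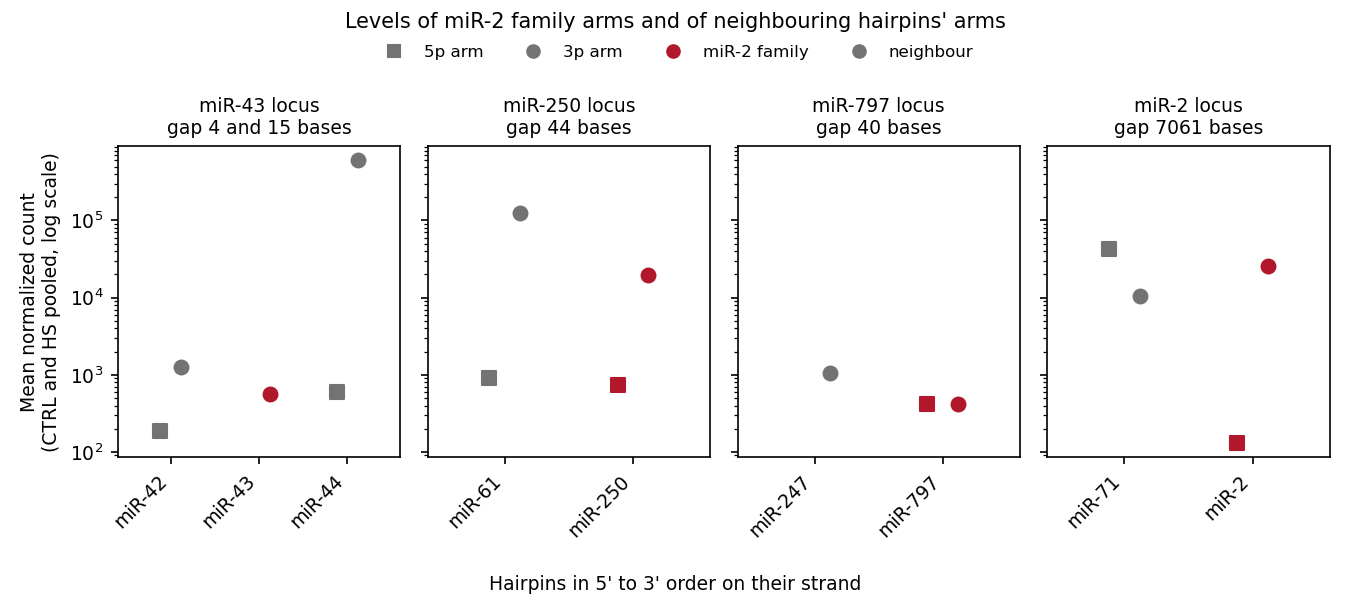
Mean normalized counts (log scale, CTRL and HS pooled) of the arms of each miR-2 family hairpin, in red, and of the listed hairpins of the same strand within 10000 bases, in grey, placed in 5′ to 3′ order with the gaps between hairpins in bases. Squares are 5p and circles 3p arms. miR-61-3p at 126108 lies above miR-250-3p. miR-44-3p at 604592, whose reads cannot be told from those of miR-45-3p, lies above miR-43-3p. miR-71-5p at 42868 was 1.66 times miR-2-3p at 25782.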

How the data were processed

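Per the labels and the study's methods, small RNA libraries of 2 CTRL and 2 HS samples were made from Trizol-extracted RNA with a TruSeq small RNA kit. The authors mapped reads to *C. elegans* miRNAs and analysed them in DESeq2, and the aligner, the miRNA reference and the treatment of reads shared by several miRNAs are not given in the sources used here. The deposited signal used here is a mean of counts, each scaled by its library's size factor, over the 4 libraries together, which removes differences in depth but not in ligation. The other 2 value columns of the table hold the authors' own comparison of HS with CTRL, its fold changes and adjusted p-values, and were not used, so no effect of heat shock is reported.

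Ranks, sums and ratios between arms were computed in Python 3.11.15 with pandas 2.3.3. Only the functions for arm ratios and for neighbours were tested on simulated data, the latter with a pair on the plus strand. Levels were taken as deposited, with no filter and nothing added. Hairpins were placed by name on WBcel235 (Ensembl release 115), which matched 129 of 132. A neighbour was a listed hairpin of the same strand within 10000 bases. Named miRNAs were all listed arms of the 4 members and of their neighbours, and the most abundant miRNA for scale. miR-45, miR-800 and miR-50 were added after their values were seen, and mature sequences of miR-44-3p and miR-45-3p were taken as the same from background knowledge. Members and lists were chosen with earlier results of these data known.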

Additional observations from a re-analysis of the deposited data

How the results depend on the processing

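No paired analysis was possible because the level of each miRNA is a mean over all libraries, and for the same reason no replicate could be left out. Of 15 values recomputed with other settings, 8 were counted as unchanged and 7 moved. Unchanged meant equal to 3 digits for shares and ratios and within 1.5 times for ranks and counts. Among the more abundant arms alone, miR-2-3p and miR-250-3p kept ranks 37 and 43. There miR-43-3p ranked 106th and not 140th, and miR-797-5p 110th and not 149th. The count of neighbour arms was 9, against 7 within 1000 bases and 11 on either strand. The family share was 0.547% with the most abundant miRNA left out of the denominator. It was 0.491% with the denominator limited to the more abundant arm of each hairpin. All 7 family arms stayed in the numerator, so the latter is not a share among the more abundant arms. With 10 added to each level, the arm ratio was 184 for miR-2 and 26.9 for miR-250. With both arms at 100 or more, 78.3% of 60 hairpins had a smaller ratio than miR-2 (79.5% of 73 without this minimum) and 51.7% a smaller ratio than miR-250 (50.7%). miR-797 was listed lowest in both sets. It was nearly level with miR-800 and miR-50 in the full set, and with miR-50 under the minimum, which removed miR-800. The sum of miR-44, miR-45, miR-61 and miR-247 over that of the miR-2 family was 15.3 without miR-45-3p, an alternative chosen after seeing the data, against 27.9. The count of listed miRNAs carrying the family seed at bases 2 to 8, and its alternatives, were not run, as full mature sequences were not used here. The depth behind each level is unknown.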
